A study of Homo sapiens with 6 samples.

Results

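The genes described here are 9 targets and feedback regulators of bone morphogenetic protein (BMP) and transforming growth factor beta (TGF-beta) signalling: ID1, ID2, ID3, ID4, SMAD6, SMAD7, SMAD9, BAMBI and THBS1. All 9 were found by symbol among the 28503 lines of the deposited expression table. They were chosen by gene family with the log2 ratios of these same comparisons already known: ID1, ID3 and THBS1 were among the highest with knockdown, and ID2 with astemizole. Their values are therefore a description, with no test. The samples are C4-2 cells, a prostate cancer cell line that descends from LNCaP, at passages 10 to 15, grown in medium with 10% fetal bovine serum. Cells received vehicle, GSK126, astemizole, lentivirus with a scramble shRNA, or lentivirus with 1 of 2 EZH2 shRNAs. GSK126 is an inhibitor of the catalytic activity of EZH2, the methyltransferase of Polycomb repressive complex 2, and astemizole is an antihistamine reported to disturb the pairing of EZH2 with EED. Vehicle is named as the control of both compounds and the scramble shRNA as the control of the knockdown. No source used here gives doses or exposure times. Polyadenylated RNA was sequenced, with 1 library in the labels for each compound, each control and each hairpin. The table holds 5 columns of FPKM, fragments per kilobase of transcript and of sequencing depth. The 2 hairpins appear as 1 knockdown column, and how the authors combined them is not stated in the sources used here.

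BMP and TGF-beta ligands bind paired serine/threonine kinase receptors, which phosphorylate receptor-regulated SMAD proteins that enter the nucleus with SMAD4. ID genes are among the best known direct targets of the BMP branch. Their products are helix-loop-helix proteins without a DNA-binding region, and they hold E proteins and other helix-loop-helix factors away from DNA. The pathway also switches on its own brakes: the inhibitory SMADs (SMAD6 and SMAD7) and BAMBI, a membrane pseudoreceptor that lacks a kinase domain. SMAD9, also known as SMAD8, is a receptor-regulated SMAD of the BMP branch. THBS1 encodes thrombospondin-1, a matrix glycoprotein that is both a target of TGF-beta and an activator of its latent form.

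The promoters of ID1 and ID3 are shown because these genes had nearly the same profile over the 5 columns, that of ID2 because its profile differed, and that of BAMBI because it alone of the 9 holds the GGCGCC motif. Each line gives the 250 bases before the RefSeq start site, 5′ to 3′ on the gene's strand, in build GRCh38.p14. The submitters' processing notes name hg19, and the expression table carries no coordinates. The windows are chr20:31605039-31605288 (plus strand) for ID1, chr1:23559502-23559751 (minus strand) for ID3, chr2:8681806-8682055 (plus strand) for ID2 and chr10:28677271-28677520 (plus strand) for BAMBI. Capitals mark matches on either strand to GGCGCC (bound by BMP SMADs), CAGAC (a SMAD binding half-site), CANNTG (the E-box, bound by E proteins) or TGACGTCA (the cyclic AMP response element).
ID1: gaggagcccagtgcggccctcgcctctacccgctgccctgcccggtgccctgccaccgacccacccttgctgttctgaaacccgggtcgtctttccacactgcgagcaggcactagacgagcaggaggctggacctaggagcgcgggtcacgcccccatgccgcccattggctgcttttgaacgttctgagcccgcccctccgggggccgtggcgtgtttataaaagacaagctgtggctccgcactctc
ID3: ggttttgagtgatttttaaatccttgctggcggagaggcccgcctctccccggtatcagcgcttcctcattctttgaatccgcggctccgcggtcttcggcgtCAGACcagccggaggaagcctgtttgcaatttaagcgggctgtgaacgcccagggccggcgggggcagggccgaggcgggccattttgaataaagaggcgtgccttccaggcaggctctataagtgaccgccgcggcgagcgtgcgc
ID2: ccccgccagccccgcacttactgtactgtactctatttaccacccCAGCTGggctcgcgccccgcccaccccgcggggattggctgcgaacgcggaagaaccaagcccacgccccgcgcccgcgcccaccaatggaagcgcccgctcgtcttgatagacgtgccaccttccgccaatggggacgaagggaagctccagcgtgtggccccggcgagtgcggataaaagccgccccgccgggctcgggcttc
BAMBI: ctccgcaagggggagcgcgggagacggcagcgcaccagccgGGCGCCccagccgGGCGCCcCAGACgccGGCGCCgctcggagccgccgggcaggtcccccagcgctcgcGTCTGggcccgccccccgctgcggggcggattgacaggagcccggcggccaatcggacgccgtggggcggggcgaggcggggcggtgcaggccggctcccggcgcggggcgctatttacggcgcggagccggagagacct
No match overlaps another in these windows. The ID1 window has no match to any of the 4 motifs, ID3 has 1 CAGAC, and ID2 has 1 E-box with the letters CAGCTG. BAMBI has 3 GGCGCC and 2 CAGAC matches, with GGCGCC starting 209, 196 and 181 bases before the start site. Among 35116 RefSeq promoter windows of the same length, 16.4% hold GGCGCC, 38.0% CAGAC, 61.8% CANNTG and 1.65% TGACGTCA. All 9 genes matched the promoter table, with 11 windows because SMAD7 has 3. Of the 9, 1 has GGCGCC, 5 have CAGAC, 4 have CANNTG and 0 have TGACGTCA in at least 1 window. These counts are per gene, while the shares over all promoters are per window, so the units differ for SMAD7 with its 3 windows. Base composition was GC-rich in all 4 windows printed, at 66.0% GC for ID1, 62.0% for ID3, 69.2% for ID2 and 81.2% for BAMBI, beside a median of 58% over all windows. A match describes the letters only, and no match in a window this short says nothing of elements farther away.

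No condition had a second value, so differences have no replicate check and no p-value, SD or standard error is given. The table carries no read totals, so the counting error behind each value is unknown. EZH2, the targeted gene, stood at 26.5 FPKM under vehicle, 17.5 under GSK126, 9.48 under astemizole, 24.6 under scramble shRNA and 3.35 under knockdown. Of 8 luminal prostate markers, 8 were at 1 FPKM or more in every column, with KLK3 the highest. KLK2 and KLK3, both androgen-induced kallikreins, were at least 2-fold lower with astemizole (-2.10 and -1.12), and KLK2 with knockdown (-1.11). These are the columns where ID1, ID2 and ID3 were high. The luminal markers did not move together: FOLH1 had 0.98 and 0.49 and STEAP1 0.85 and 0.44 with astemizole and knockdown. The median of the 8 was -0.41 and 0.12 in turn, and 0 were at least 2-fold higher. The part of the kallikreins in the ID values was not tested. Endothelial and fibroblast markers were checked because those cells express ID1 and THBS1 strongly. Of 8 endothelial markers 1 reached 1 FPKM in any column, namely EGFL7, at 24.0 to 50.3 FPKM with its highest level under astemizole, and PECAM1, CDH5, KDR and TEK were at or near 0. The 8 fibroblast markers summed to between 1.22 and 3.10 FPKM, with COL1A1 as the highest. The GSK126 column stood apart in liver transcripts: 8 liver markers summed to 176 FPKM there, 20.4 with vehicle and 2.04 to 5.61 in the other 3 columns. Blood cell markers summed to 8.15 FPKM with GSK126, nearly all of it LYZ, and to at most 1.31 elsewhere. The part of these transcripts in the values below was not tested.

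**Figure D1:**
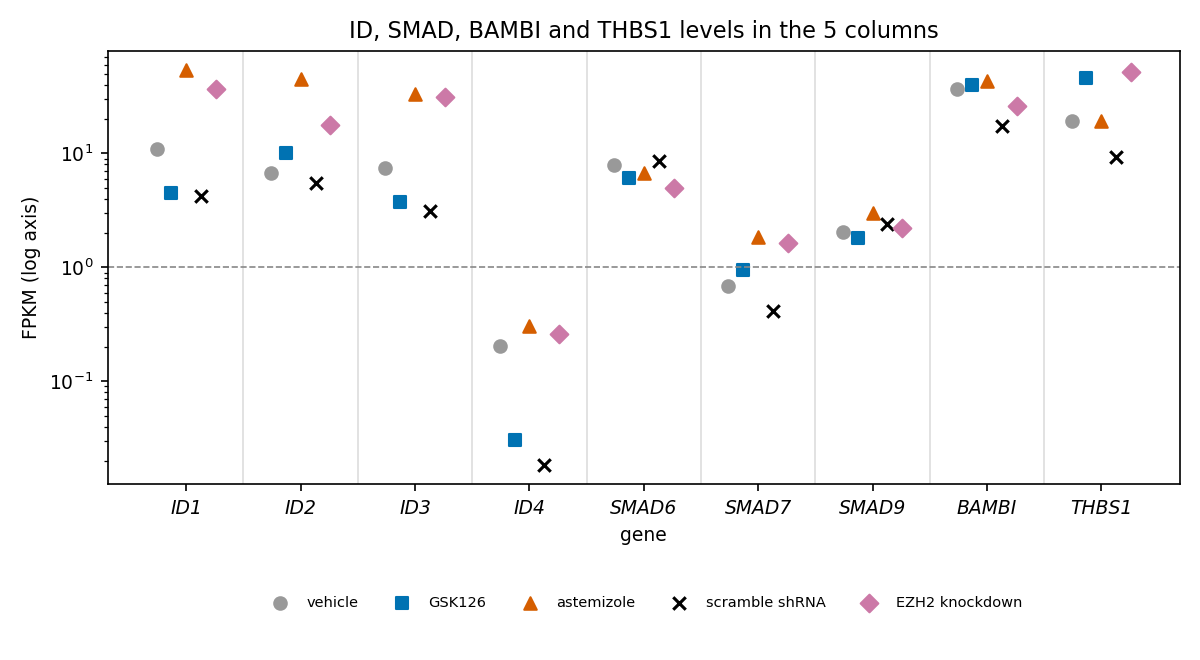
Levels of the 9 genes in FPKM (vertical log axis), with 1 point per column of the table and the 1 FPKM filter as a dashed line. ID1, ID2 and ID3 have their 2 highest points with astemizole and knockdown, while THBS1 has its 2 highest with GSK126 and knockdown.

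Among the ID genes, ID1, ID2 and ID3 were highest with astemizole, next with EZH2 knockdown, and lowest with scramble shRNA. ID1 stood at 11.0 FPKM under vehicle, 4.49 under GSK126, 53.5 under astemizole, 4.22 under scramble shRNA and 36.9 under knockdown. Its astemizole and knockdown levels both lay above the other 3 columns, and its GSK126 and scramble levels were close to each other. ID3 stood at 7.50, 3.78, 33.4, 3.15 and 31.2 FPKM in the same order. Its order over the columns was that of ID1, with less distance between astemizole and knockdown. ID2 stood at 6.75, 10.0, 44.6, 5.51 and 17.7 FPKM. Unlike ID1 and ID3, ID2 was above vehicle with GSK126, and its knockdown level was less than its astemizole level by a wider margin. ID4 was listed at 0.205, 0.0307, 0.307, 0.0185 and 0.260 FPKM. It did not reach 1 FPKM in any column, the filter for comparisons, so no fold is given for it; the 8 other genes passed. In bulk RNA, a change in the share of cells that express a gene cannot be told apart from a change in RNA per cell.

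The makeup of the ID family differed by column. Summed over the 4 genes, a sum that is on a per-length scale, ID transcripts came to 25.4 FPKM under vehicle, 18.3 under GSK126, 132 under astemizole, 12.9 under scramble shRNA and 86.1 under knockdown. ID2 made up 26.5% of that sum under vehicle, 54.8% under GSK126, 33.8% under astemizole, 42.7% under scramble shRNA and 20.5% under knockdown. ID1 was the most abundant member with vehicle (43.2%), astemizole (40.6%) and knockdown (42.9%), and ID2 was the most abundant with GSK126 and scramble shRNA. The level of ID1 was 1.18 to 1.60 times that of ID3 in all 5 columns.

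Ratios were computed as log2 of FPKM + 1 over FPKM + 1 of the control, which compresses the differences of weakly expressed genes, and a gene was counted at 2-fold or more, a log2 ratio of 1. With astemizole against vehicle, 3 of the 8 genes passing the filter were at least 2-fold higher, namely ID1, ID2 and ID3, and 0 were lower. Of all 12924 genes that reached 1 FPKM in any column, 3.53% were at least 2-fold higher and 5.49% lower in that comparison. The log2 ratios were 2.56 for ID2, 2.19 for ID1 and 2.02 for ID3. ID2 ranked 15, ID1 24 and ID3 35 from the highest among the 12924 genes. The median over the 8 genes was 0.57, beside -0.06 over all genes.

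With EZH2 knockdown against scramble shRNA, ID1, ID2, ID3 and THBS1 passed 2-fold upward, which is 4 of the 8 genes, and 0 passed downward. Over all genes 1.93% were higher by that rule and 5.11% lower. ID3 had a log2 ratio of 2.96 and ranked 4 from the highest, ID1 had 2.86 and ranked 7, THBS1 had 2.36 and ranked 12, and ID2 had 1.52 and ranked 59. The median of the 8 was 1.21, beside 0.03 over all genes. Against vehicle in place of scramble shRNA, the same 4 genes were at least 2-fold higher, with log2 ratios of 1.92 for ID3, 1.66 for ID1, 1.38 for THBS1 and 1.27 for ID2. In that comparison 1.93% of all genes were higher and 7.25% lower. In FPKM without a pseudocount, the ID1 ratio was 8.75 against scramble shRNA and 3.36 against vehicle, and the THBS1 ratio was 5.56 and 2.69.

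**Figure D2:**
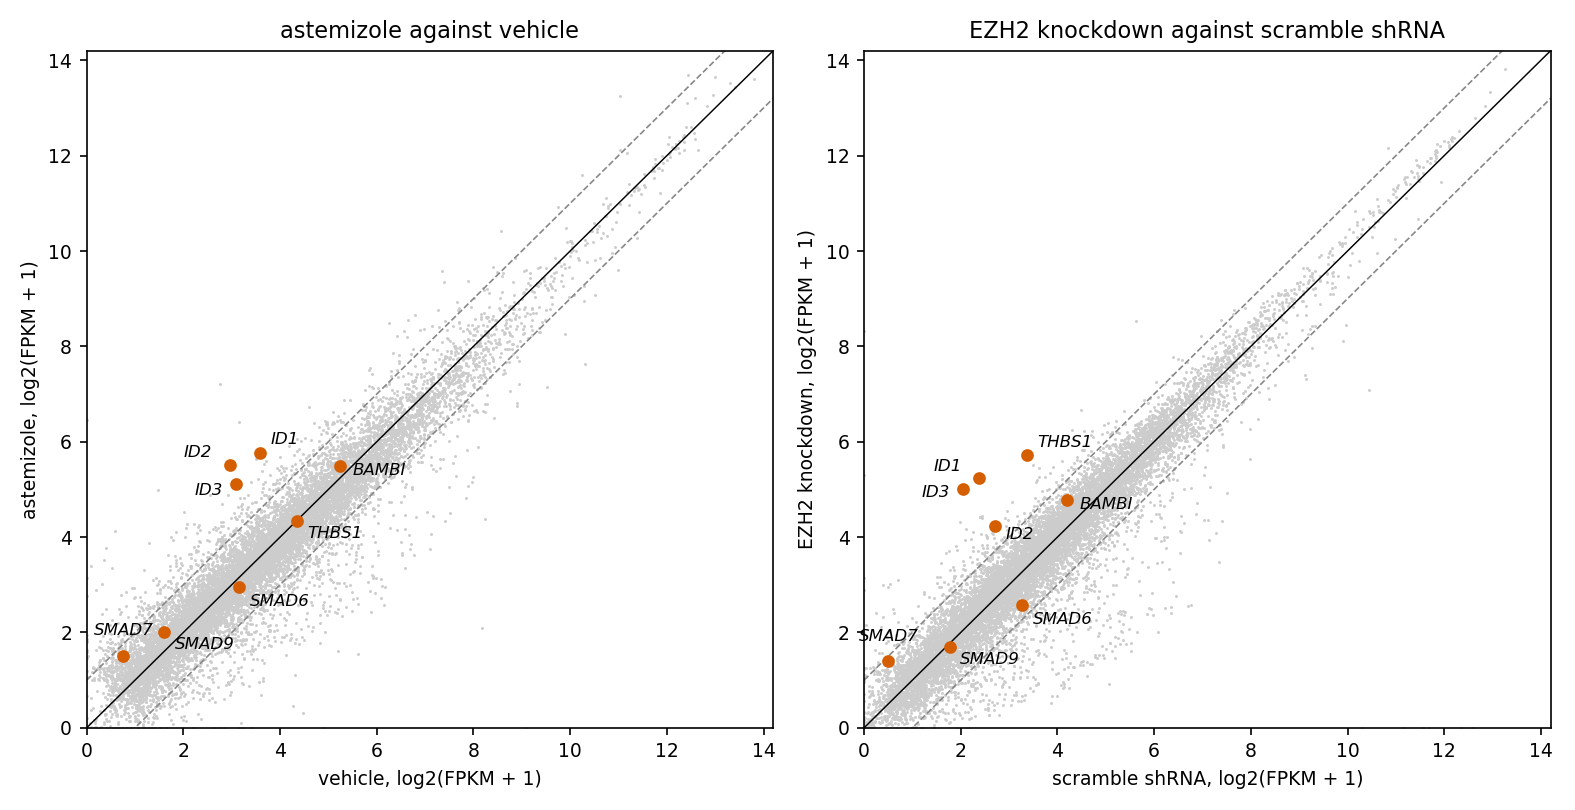
Levels of 12924 genes as log2(FPKM + 1), control on the horizontal and treatment on the vertical axis, with equality as a solid line and 2-fold as dashed lines; labelled points are the 8 genes that passed the filter. ID1, ID2 and ID3 lie above the upper dashed line in both panels, and THBS1 lies on the line of equality with astemizole (-0.01) and above the dashed line with knockdown (2.36).

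With GSK126 against vehicle, the 8 genes went both ways. THBS1 was at least 2-fold higher (log2 ratio 1.22) and ID1 at least 2-fold lower (-1.13), so that 1 of 8 passed in each direction, beside 1.05% of all genes higher and 0.952% lower. ID3 had -0.83 and ID2 0.51. The median of the 8 was -0.01 and that of all genes -0.04. This is the column with 176 FPKM of liver markers, against 20.4 with vehicle. The low ID1 and ID3 ratios depended on the control column: against scramble shRNA, ID1 had 0.07 and ID3 0.21. Rescaling to TPM shifted the all-gene median by 0.19 in this comparison, and ID1 then had -0.97 and was no longer past 2-fold. Against scramble shRNA, THBS1 had 2.20 and BAMBI 1.16, so that 2 of 8 passed 2-fold upward and 0 downward, with 1.52% and 0.395% of all genes called.

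THBS1 had a pattern of its own among the 9. It stood at 19.3 FPKM under vehicle, 46.3 under GSK126, 19.1 under astemizole, 9.31 under scramble shRNA and 51.8 under knockdown. GSK126 and knockdown were the high columns and scramble shRNA was the low one, while astemizole and vehicle were nearly equal. The log2 ratio with astemizole was -0.01 against vehicle, 0.03 after TPM rescaling, and 0.96 against scramble shRNA.

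From their lowest to their highest column, the feedback regulators differed less than ID1, ID2 and ID3. SMAD6, which blocks BMP-activated SMADs, stood at 7.91 FPKM under vehicle, 6.10 under GSK126, 6.76 under astemizole, 8.63 under scramble shRNA and 4.97 under knockdown. The 2 control columns were the 2 highest, and no ratio passed 2-fold. Its log2 ratio was -0.33 with GSK126, -0.20 with astemizole and -0.69 with knockdown, and it remained below 0 with either control. SMAD7, which blocks both branches, stood at 0.692, 0.950, 1.84, 0.413 and 1.63 FPKM in the same order of columns. Its 2 highest levels were with astemizole and knockdown, as for ID1, ID2 and ID3, but all levels were below 2 FPKM, where the pseudocount weighs most. The SMAD7 log2 ratio was 0.75 with astemizole and 0.90 with knockdown, and with a pseudocount of 0.1 FPKM it was 1.30 and 1.75. At that pseudocount ID2 had 2.70 and 1.66, so the knockdown ratio of SMAD7 was the larger. SMAD7 stood at 0.0875 times the level of SMAD6 under vehicle, 0.156 under GSK126, 0.273 under astemizole, 0.0479 under scramble shRNA and 0.328 under knockdown.

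BAMBI was the most abundant of the 9 genes with vehicle and with scramble shRNA. It stood at 36.8 FPKM under vehicle, 39.9 under GSK126, 43.7 under astemizole, 17.3 under scramble shRNA and 26.3 under knockdown. Both lentiviral columns were lower than the 3 others. The log2 ratio of BAMBI with knockdown was therefore 0.58 against scramble shRNA and -0.47 against vehicle. SMAD9 stood at 2.05, 1.79, 3.002, 2.41 and 2.24 FPKM, the narrowest range beside SMAD6, and none of its ratios passed 2-fold. Its sign with GSK126 turned with TPM rescaling (-0.13 and 0.02), and its sign with knockdown turned with the control (-0.08 against scramble shRNA and 0.09 against vehicle).

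The 2 control columns themselves differed for several of these genes. With scramble shRNA against vehicle, 3 of 8 passed 2-fold downward and 0 upward, beside 0.851% of all genes lower and 0.17% higher. ID1 had -1.20, BAMBI -1.05 and ID3 -1.04, and THBS1 was just short of the threshold at -0.98. ID2 had -0.25, SMAD7 -0.26, SMAD6 0.11 and SMAD9 0.16. The median of the 8 was -0.62 and that of all genes -0.11. In the same comparison 5 of the 7 liver markers that passed the filter were at least 2-fold lower, namely ALB, AFP, APOA1, APOA2 and SERPINA1, and the 8 summed to 2.04 FPKM with scramble shRNA and 20.4 with vehicle. With TPM, which shifted the all-gene median by 0.23, ID1 alone was still at the 2-fold threshold, with -0.86 for ID3 and -0.80 for BAMBI. With 1 library each, the treatment and the library cannot be told apart. Against scramble shRNA, astemizole put 5 of 8 genes past 2-fold upward and 0 downward, with 4.57% of all genes higher and 3.9% lower. These 5 were ID1 (3.38), ID3 (3.05), ID2 (2.81), BAMBI (1.29) and SMAD7 (1.01).

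**Figure D3:**
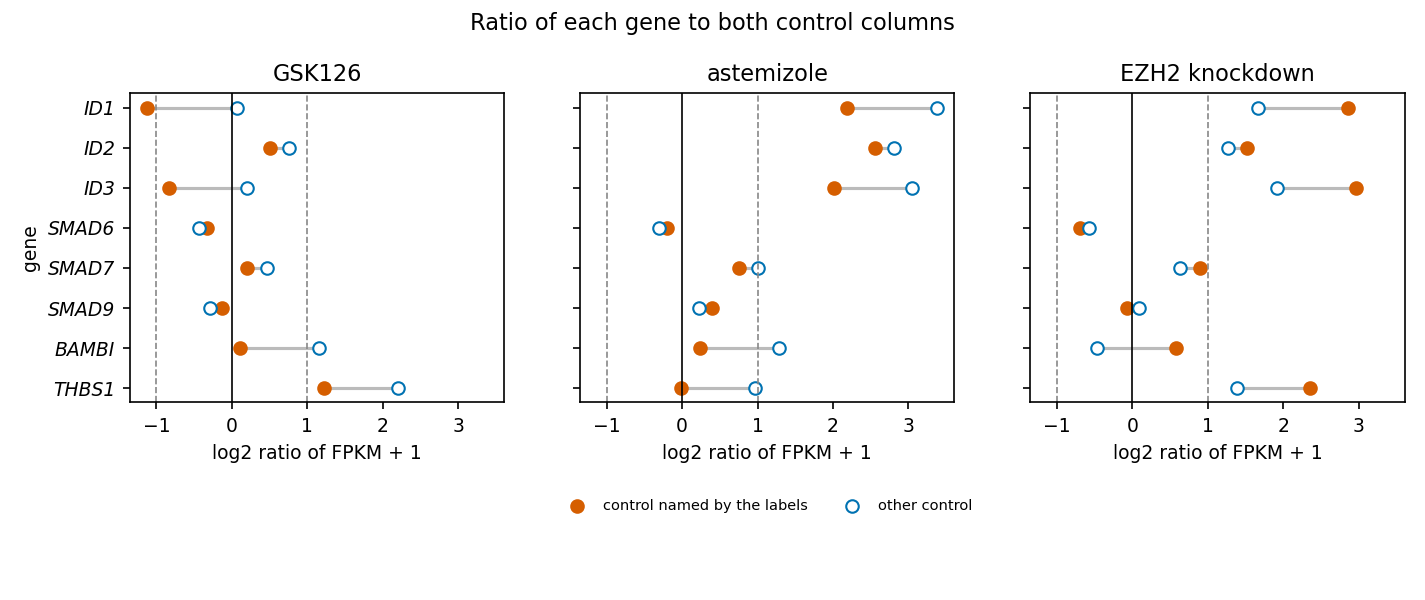
Log2 ratio of FPKM + 1 (horizontal axis) for the 8 genes that passed the filter, against the control named by the labels (filled) and against the other control (open), with dashed lines at 2-fold. By construction each gene shifts by its own difference between the 2 controls, which for ID1 with GSK126 takes the ratio from -1.13 to 0.07.

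The other genes of the pathway were followed through lists of ligands, receptors, SMADs, antagonists, regulators, further targets and partners. The table holds 123 of the listed genes, and 67 of them passed the filter. Among the 67, 3 were past 2-fold upward and 0 downward with GSK126, 1 higher and 0 lower with astemizole, and 2 higher and 1 lower with knockdown, each against the control named by the labels. The shares of all genes called were 1.05% higher and 0.952% lower with GSK126, 3.53% and 5.49% with astemizole, and 1.93% and 5.11% with knockdown. With the controls swapped, 1 of the 67 was past 2-fold upward with GSK126 (TSC22D1), 1 with astemizole (BMP7) and 0 with knockdown. In these comparisons 0 were past it downward, so that every knockdown call ended. The shares of all genes were then 1.52% higher and 0.395% lower with GSK126, 4.57% and 3.9% with astemizole, and 1.93% and 7.25% with knockdown. Between the 2 controls 0 were past 2-fold in either direction, beside 0.17% of all genes higher and 0.851% lower with scramble shRNA. The median log2 ratio over the 67 genes was 0.10, 0.03 and 0.04 with GSK126, astemizole and knockdown, beside -0.04, -0.06 and 0.03 over all genes.

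Few ligand genes were expressed. Of 15 BMP and GDF ligands 6 passed, and of 11 TGF-beta, activin and nodal ligands 2 passed. GDF15, a stress-induced member of the superfamily, stood between 963 FPKM with vehicle and 1432 with astemizole. BMP6 was at 4.51 FPKM with vehicle, 11.6 with GSK126 and 4.05 to 5.42 in the other 3 columns, with a log2 ratio of 1.19 with GSK126 against vehicle and 0.97, short of 2-fold, against scramble shRNA. BMP7 had its highest level with astemizole, at 5.85 FPKM against 2.71 with vehicle (0.88), and its lowest with knockdown, at 1.24. GDF11 was likewise highest with astemizole (24.0 FPKM) and lowest with knockdown (7.64). INHBB, the activin B subunit, had 0.76 with knockdown.

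Of 16 receptor genes 10 passed, and BMPR1B, a type I BMP receptor, was the one past 2-fold: it stood at 8.05 FPKM with GSK126 and 2.63 with vehicle (1.32), and had 0.83 against scramble shRNA. ACVR1, another type I receptor of the BMP branch, was at 6.00 FPKM with knockdown and 2.96 with scramble shRNA (0.82). The type II receptor BMPR2 had 0.63 with GSK126 and also 0.63 with scramble shRNA, both against vehicle. All 5 receptor-regulated and common SMADs listed passed, with 0 past 2-fold in the 3 treatments. SMAD5 and SMAD1, which carry the BMP signal, had -0.47 and -0.07 with astemizole and -0.04 and -0.20 with knockdown. SMAD2, of the TGF-beta branch, had 0.54 and 0.03, and SMAD4 -0.11 and 0.04.

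Of 16 secreted antagonists 4 passed, with 0 past 2-fold. TWSG1, which binds BMP in the matrix, was the highest of them. It stood at 18.3 FPKM under vehicle, 21.9 under GSK126, 24.1 under astemizole, 15.7 under scramble shRNA and 11.7 under knockdown. The TWSG1 log2 ratio was 0.25 with GSK126, 0.38 with astemizole and -0.39 with knockdown. NBL1 had the knockdown ratio farthest from 0 among the 4, at -0.72. Among 13 intracellular regulators 0 were past 2-fold. The corepressor gene TGIF1 stood at 24.3 FPKM with knockdown and 13.5 with scramble shRNA (0.80). PMEPA1, a TGF-beta-induced inhibitor that is also androgen-induced, had 0.76 with GSK126 and -0.61 with knockdown. With the controls swapped, PMEPA1 had 0.31 and -0.16.

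Of 13 other TGF-beta and BMP induced genes that passed the filter, 1 was past 2-fold upward with GSK126, 0 with astemizole and 2 with knockdown, and 0 were past it downward. The shares of all genes called upward were 1.05%, 3.53% and 1.93% in turn. The median of the 13 was -0.12, -0.06 and 0.09, and with the controls swapped it changed sign in all 3 comparisons, to 0.18, 0.23 and -0.16. The median of all genes changed sign in the same 3 swaps, from -0.04, -0.06 and 0.03 to 0.05, 0.03 and -0.09. Against vehicle, neither knockdown call was kept: JUNB had 0.93 and TSC22D1 0.90. JUNB, an AP-1 subunit gene induced early by both ligands, had its 2 highest levels with astemizole and knockdown, as ID1 did, at 21.9 FPKM under vehicle, 20.03 under GSK126, 41.9 under astemizole, 20.5 under scramble shRNA and 42.5 under knockdown. Its log2 ratio was 0.91 with astemizole and 1.02 with knockdown, and its 2 controls were nearly equal. TSC22D1, a TGF-beta-stimulated transcription regulator, had its 2 highest levels in the columns where THBS1 did, at 91.2 FPKM with GSK126 (1.25) and 71.5 with knockdown (1.05), and 34.0 to 40.0 in the other 3 columns. THBS1 was highest with knockdown and TSC22D1 with GSK126. MSX2, a homeobox target of BMP, had 0.59 with astemizole and 0.42 with knockdown, and 0.99 and 0.03 with the controls swapped. HES1 had -0.81 with astemizole and 0.09 with knockdown, and -0.33 and -0.39 with the controls swapped. SNAI1, at 2.22 FPKM or less in every column, had -0.54 with GSK126, -0.67 with astemizole and -0.65 with knockdown. With the controls swapped, SNAI1 had -0.46, -0.59 and -0.73. CYR61 had -0.21, -0.19 and 0.90 in the 3 treatments, and 0.18, 0.19 and 0.51 with the controls swapped.

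The partners that ID proteins bind were also measured. Of 15 genes for E proteins and other helix-loop-helix factors 7 passed. TCF3, which encodes the E proteins E12 and E47, stood at 22.6 FPKM under vehicle, 14.9 under GSK126, 13.4 under astemizole, 20.4 under scramble shRNA and 15.0 under knockdown. Its 3 treated columns lay below both controls, and no ratio reached 2-fold (-0.57, -0.71 and -0.42). TCF4 was at 2.58, 6.07, 7.06, 4.62 and 2.46 FPKM, with 1.17 with astemizole and 0.52 when scramble shRNA was the control. TCF12 had 0.24, -0.15 and 0.01. HES6 stood at 85.6 FPKM with knockdown and 180 with scramble shRNA (-1.06), and had -0.97 against vehicle, short of 2-fold. Of the 7 thrombospondin family and receptor genes that passed, 0 were past 2-fold, and THBS3 had 0.45 with GSK126 and 0.02 with knockdown. Among the receptor genes, SDC1 had -0.74 with GSK126, -0.54 with astemizole and -0.49 with knockdown, and SDC4 had 0.43, 0.68 and 0.49.

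**Figure D4:**
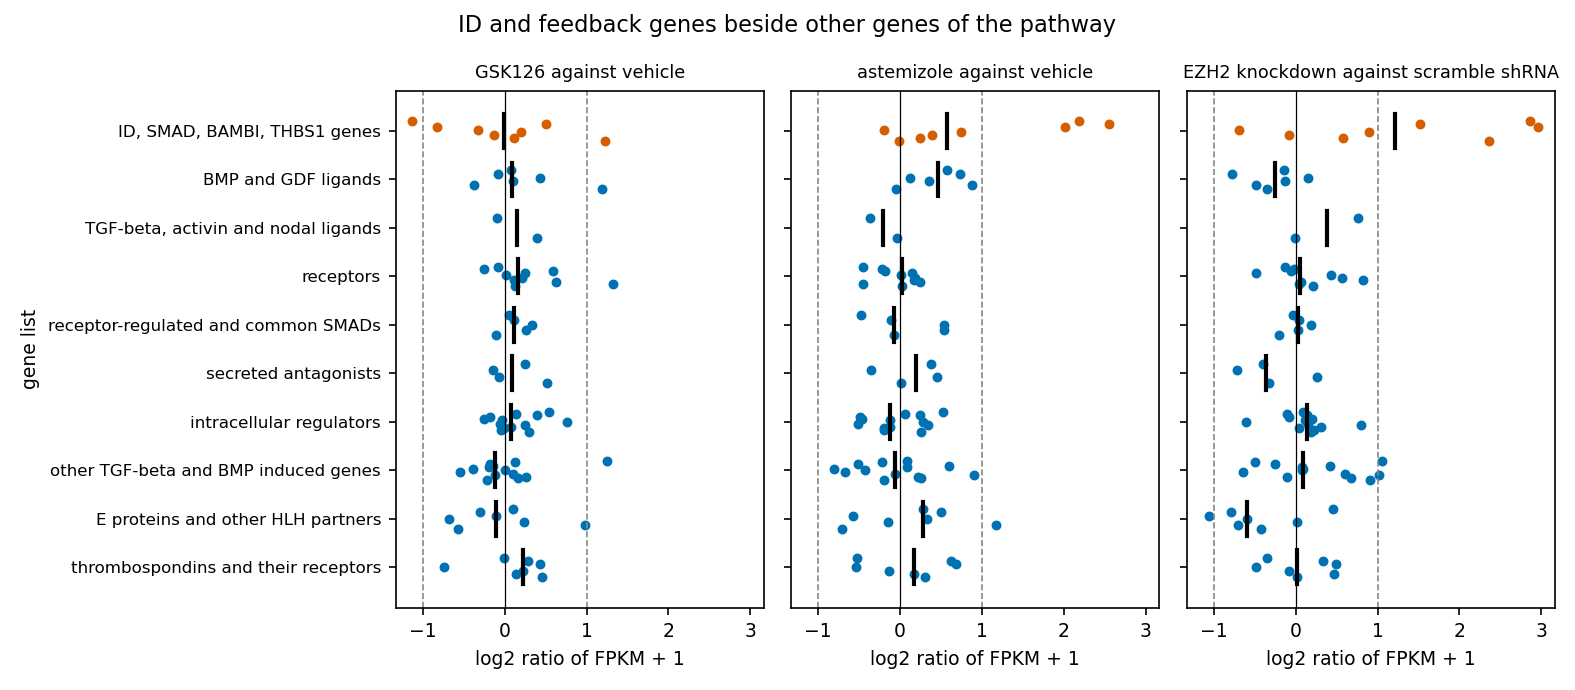
Log2 ratios of FPKM + 1 (horizontal axis) for single genes that passed the filter, by list, with the list's median as a black bar and 2-fold as dashed lines. The ID and feedback genes reach 2.56 with astemizole and 2.96 with knockdown, where the 67 other pathway genes reach 1.17 and 1.05; with GSK126 the other pathway genes reach 1.32 (BMPR1B) and the ID and feedback genes 1.22 (THBS1). The ID and feedback genes were chosen with these ratios known.

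Profiles were compared as the root mean square difference of log2(FPKM + 1), centred on each gene's mean over the 5 columns, among genes with a known symbol that reached 5 FPKM in any column. The nearest gene to ID1 was ID3, and the nearest to ID3 was ID1, at a difference of 0.17. CDKN1A, which encodes the cell cycle inhibitor p21, came second for both, at 0.18 from ID3 and 0.32 from ID1, with 99.4 FPKM under vehicle, 73.6 under GSK126, 374 under astemizole, 48.0 under scramble shRNA and 370 under knockdown. IGFBP3 followed at 0.62 and 0.64. For ID2 the nearest genes were IGFBP3 at 0.14, CAMK1D at 0.24 and the sterol reductase gene TM7SF2 at 0.28. ID3 and ID1 lay at 0.68 and 0.71 from ID2. Among 9372 genes compared, ID2 ranked 6 in nearness to ID1 and 8 to ID3. From ID2, ID3 ranked 272 and ID1 363.

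For THBS1 the nearest genes were LTN1, a ubiquitin ligase gene of ribosome quality control, at 0.21, HS3ST1 at 0.27 and TARP at 0.29. For BAMBI they were EVI5L at 0.11, the adenosine receptor gene ADORA2A at 0.14 and LOC391322 at 0.15. For SMAD6 they were the nuclear pore gene NUP43 at 0.04, UAP1 at 0.05 and RDH13 at 0.06; a profile with little range lies near many others. SMAD7, SMAD9 and ID4 did not reach 5 FPKM in any column and were left out of the profile search. Among the members searched, none but ID1 and ID3 was among the 3 genes nearest to another member.

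**Figure D5:**
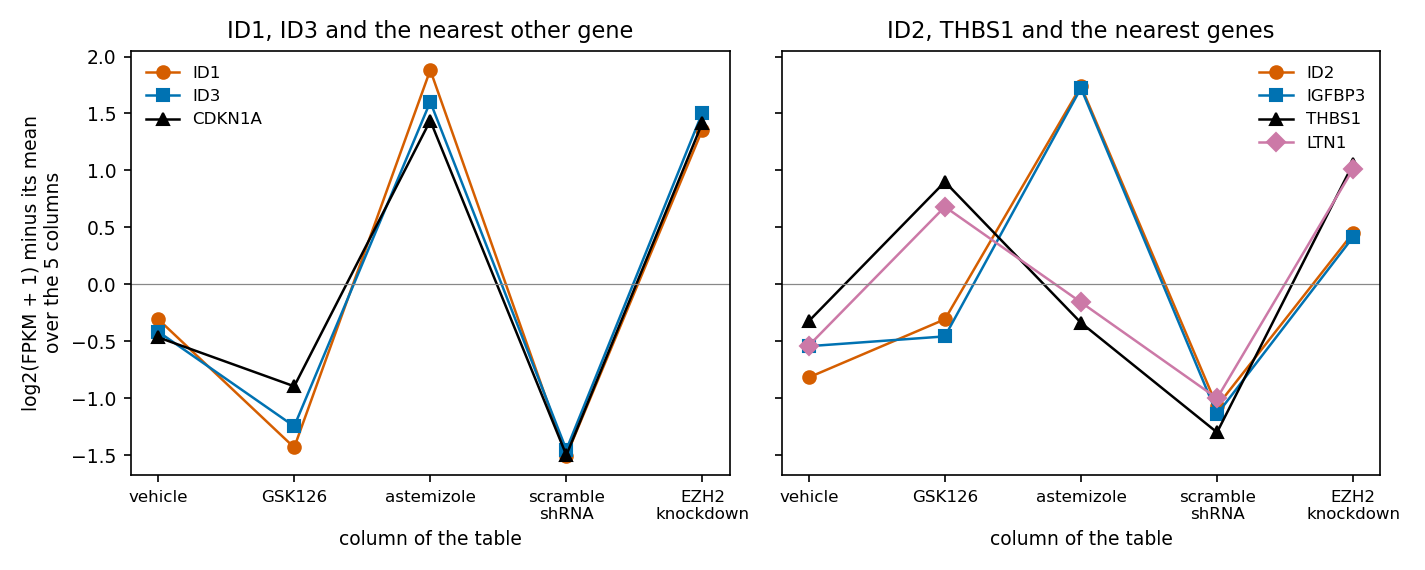
Centred profiles over the 5 columns: log2(FPKM + 1) minus the gene's mean (vertical axis) for ID1, ID3 and CDKN1A on the left and for ID2, THBS1 and the gene nearest to each on the right. ID1, ID3 and CDKN1A are high with astemizole and knockdown and low with GSK126 and scramble shRNA; ID2 has a higher astemizole than knockdown point, and THBS1 is high with GSK126 and knockdown.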

How the data were processed

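The values are FPKM, deposited by the authors in 1 table for the series, per the labels. TopHat2, Cuffdiff and hg19 are named, without versions, in the submitters' processing notes; the annotation, filters and normalization are not stated in the sources used here. Of 28503 lines, 27 names turned into dates and 1720 short non-coding RNA names were left out, and the 12924 genes that reached 1 FPKM in any of 5 columns were compared. Low values came in steps, and relative to vehicle the step of 1 read was 0.949 for GSK126, 1.05 for astemizole and 0.857 for scramble shRNA; totals were not derived. Ratios, counts at 2-fold and profile distances were computed in Python 3.11.15 with pandas 2.3.3; the ratio and count steps were tested on simulated data. Named by rule were the 9 genes, EZH2, up to 4 genes per list and comparison with the largest ratios, and the 3 nearest profiles per gene at 5 FPKM or more. Only part of the list genes named by that rule are shown. Those shown, and the values of other genes and markers, were picked after they were seen. The 9 genes and the lists were chosen with earlier results of these data known. Promoter sequences are from RefSeq (GRCh38.p14). Alternatives were a pseudocount of 0.1 FPKM, no filter, TPM rescaling, centring on the median, a 1.5-fold threshold and the swapped control.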

Additional observations from a re-analysis of the deposited data

How the results depend on the processing

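The count of the 9 genes past 2-fold was recomputed under each alternative for GSK126, astemizole and scramble shRNA against vehicle and for knockdown against scramble shRNA. With the swapped control, the higher count with GSK126 was 2 in place of 1 and the lower count 0 in place of 1, and the higher count with astemizole was 5 in place of 3; the log2 ratio of ID1 with GSK126 reversed, from -1.13 to 0.07, since ID1 itself was lower with scramble shRNA than with vehicle. After TPM rescaling the lower count was 0 with GSK126, and it was 1 in place of 3 for scramble shRNA against vehicle, as it was after centring on the median. At 1.5-fold, the lower count was 2 with GSK126 (ID1 and ID3) and 1 in place of 0 with knockdown (SMAD6). All other counts were within 1.5 times those reported. Over all genes, counts at a pseudocount of 0.1 FPKM were 370 higher and 236 lower with GSK126 (136 and 123 as reported), 750 and 1021 with astemizole (456 and 710), 486 and 1003 with knockdown (249 and 660) and 77 and 303 for scramble shRNA against vehicle (22 and 110), and after TPM rescaling they were 285 and 70 with GSK126 and 84 and 82 for scramble shRNA against vehicle. ID1, ID2 and ID3 were at least 2-fold higher with astemizole and knockdown, and THBS1 with knockdown, under 4 alternatives. These were a pseudocount of 0.1 FPKM, TPM rescaling, centring on the median and the swapped control. Dropping the filter or using a 1.5-fold threshold could not end these calls. Of the 67 other pathway genes, swapping the control took the higher count with GSK126 from 3 to 1 and with knockdown from 2 to 0, and the lower count with knockdown from 1 to 0. Dropping the filter leaves the ratios of the named genes as reported by construction, since each ratio uses only that gene's own values. Depth limits ID4 and SMAD7 most, since their levels were low and read counts are unknown. No leave-one-out value could be had with 1 column per condition. No paired analysis was possible because each condition has a single column and the 2 hairpins are not separated.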
